A study of Mus musculus with 12 samples.

Results

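The genes of the proteasome were chosen by symbol: 55 of the 37477 rows of the deposited table have a name that starts with Psma, Psmb, Psmc, Psmd, Psme, Psmf or Psmg and a digit. Of these 55 rows, 48 are annotated proteasome genes and 6 are pseudogenes by their symbols. The remaining 1, Psmc3ip, encodes a partner of a meiotic recombination factor and is not a proteasome subunit. RNA came from CCE cells, a mouse embryonic stem cell line grown in serum with LIF, after transduction with a lentivirus that expresses a short hairpin RNA and selection with puromycin. The 4 groups of 3 libraries were TUNA hairpin cells at day 2, at day 4 and at day 6 after transduction, and control hairpin cells at day 2. TUNA (Tunar) is a long intergenic noncoding RNA, and all groups carry the vector and the drug. The control analysed here is of day 2, so at the later days effects of the hairpin and of the days in culture cannot be told apart. The labels do not say that replicates were separate cultures, so p-values reflect only how these libraries vary, and that variation may be technical.

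The proteasome is the protease that degrades proteins tagged with ubiquitin. Its barrel-shaped core has outer rings of alpha subunits, which gate the entry, and inner rings of beta subunits, some of which cut the chain. A regulatory particle docks on the core: its base holds a ring of ATPases that unfold the substrate and receptors that bind ubiquitin, and its lid removes the ubiquitin chain. Other activators (Psme1 to Psme4) can dock in its place, and dedicated chaperones assemble the rings. When proteasome activity falls, the transcription factor Nfe2l1 raises most subunit genes together in mammalian cells. Embryonic stem cells are known for high proteasome activity.

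The libraries held 3522222 to 5653176 reads, a depth estimated from the step between low values, but 60.4% to 76.9% of them lay in 3 rows (Rnu3a, Tex14 and LOC100503663). Outside those rows 936446 to 2025011 reads remained, and the 55 members together had 3414 to 5770 reads per library. Values below are normalized counts, of which 1 read was worth 0.651 to 1.42, and a value listed at 0 stands for 1 normalized count or less. The row of the targeted RNA (2810011L19Rik) was listed at 0 in all 12 libraries, controls included, so the knockdown could not be checked. In TUNA hairpin libraries the summed stem cell markers (8 genes) ranged over 2535–2702 normalized counts on day 2, 2400–2610 on day 4 and 1761–2208 on day 6, against 2807–3056 in control hairpin libraries. The 9 fibroblast markers summed to 13.5 to 45.7, 16.9 to 30.6 and 304 to 388 in TUNA hairpin cells at day 2, day 4 and day 6, and to 8.48 to 13.8 in control hairpin cells, with all 5 matrix genes (Col1a1, Col1a2, Col3a1, Dcn and Lum) at 0 in every group. The 5 leukocyte markers summed to at most 3.26 in any library.

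Of the 55 members, 42 reached 10 normalized counts in at least 3 libraries and were tested. All 8 alpha ring, 7 beta ring, 9 base and 8 lid genes were among them, against 3 of 5 activator or inhibitor genes, 4 of 7 assembly factors, 1 of 4 immunoproteasome or thymoproteasome genes and 2 of 6 pseudogenes. Of the 13 members not tested, 6 were listed at 0 in every library: Psme2, the thymus subunit Psmb11, and the pseudogenes Psmb5-ps, Psmb6-ps, Psmb7-ps1 and Psmb7-ps2. Psmc3ip stayed between 0 and 9.03 normalized counts.

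Levels are compared between genes per kilobase of exon (GENCODE M21, build GRCm38). The length joins the exons of all annotated protein-coding transcripts of a gene, 2846 bases for Psma3 and 1165 for Psma4. Differences in level between genes therefore also depend on that annotation. In control hairpin cells the base had a median of 83.9 normalized counts per kilobase, the beta ring 79.2, the alpha ring 40.0 and the lid 31.4, while the 4 assembly factors lay between 6.13 and 15.6. Psmd4, the ubiquitin receptor of the base, was the highest at 425 ± 95.7 per kilobase (SD, n = 3), followed by Psmb3 of the beta ring at 379.8 ± 11.2 and Psma4 of the alpha ring at 177.8 ± 12.2. Psmd4 and Psmb3 do not differ beyond their spread. Psme4, the nuclear activator, had 37.8 ± 5.06 per kilobase, a level within the range of the lid genes (8.53 to 116.6), and the activator Psme3 had 7.21 ± 1.40. Subunits of one ring or complex differed widely in level: the alpha ring ran over Psma3 at 3.86 ± 2.26 per kilobase and Psma4 at 177.8, and the base over Psmc6 at 23.7 ± 2.70 and Psmd4 at 425. Part of this spread touches near-identical copies. At a minimum of 95% identity over 200 bases, 14 members (12 of them tested) have such a copy elsewhere in GRCm38, and no source used here says how reads were shared between copies. For Psma3 the copy Gm13835 had 40.2 to 77.2 normalized counts where Psma3 itself had 3.74 to 37.3, and Psme2b-ps had 13.1 to 36.7 where its parent Psme2 was listed at 0.

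**Figure D1:**
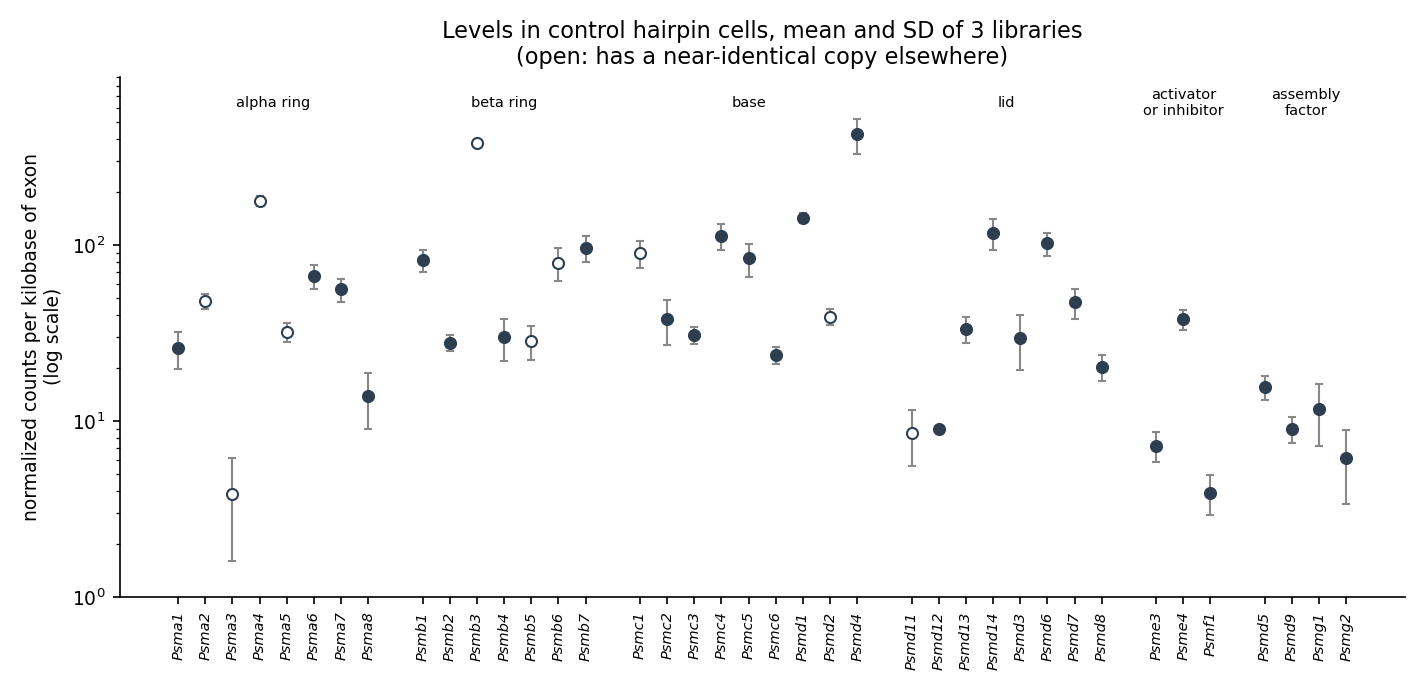
Mean level (points) and SD (bars) over the 3 control hairpin libraries, in normalized counts per kilobase of exon on a log axis, for the tested genes of 6 classes; open points have a near-identical copy elsewhere. Psmd4 (425) and Psmb3 (379.8) stand at the top, and the 4 assembly factors lie between 6.13 and 15.6.

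Few proteasome genes changed, and those that did belonged to different parts of the particle. At day 4 against the control, the activator gene Psme4 rose and the base genes Psmc4 and Psmd4 fell, so 3 of 42 tested members (7.14%) passed an adjusted p of 0.05, against 14.7% of all 8739 rows tested (6.99% higher and 7.76% lower). No member passed at day 2 (0.961% of all rows did) or at day 6 (6.21% of all rows did). At an unadjusted limma p under 0.05 there was 1 member higher and 0 lower at day 2, where 5.94% and 6.33% of all rows were. There were 3 higher and 6 lower at day 6, where 8.96% and 10.5% of all rows were. Between the days with the TUNA hairpin, 4 members (9.52%) passed for day 4 against day 2, where 7.66% of all rows did (3.27% higher and 4.38% lower). For day 6 against day 2, 3 (7.14%) passed, where 4.5% did (1.96% higher and 2.54% lower). None passed for day 6 against day 4, where 5.58% of all rows did. There 3 members were higher and 1 lower at an unadjusted limma p under 0.05 (10.2% and 10.5% of all rows). In the comparisons with calls, the members past an unadjusted limma p of 0.05 were 2 higher (4.76%) and 8 lower (19%) for day 4 against the control, where 14.4% and 15.5% of all rows were. They were 2 higher (4.76%) and 10 lower (23.8%) for day 4 against day 2, where 11.2% and 12.4% were, and 1 higher (2.38%) and 6 lower (14.3%) for day 6 against day 2, where 8.96% and 10% were. The comparisons with the control share its 3 libraries, and those that contain one day share that day's libraries.

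The direction of the smaller differences varied by day. At day 2 the log2 change against the control was above 0 in 28 and below 0 in 14 of the 42 members, with a median of 0.09 (all rows 0.01). At day 4 it was above 0 in 15 and below 0 in 27, with a median of −0.15 (all rows −0.01). At day 6 it was above 0 in 17 and below 0 in 25, with a median of −0.08 (all rows −0.01). By class, the medians at day 4 against the control were −0.36 for the base, −0.20 for the beta ring, −0.12 for the lid, −0.03 for the alpha ring, 0.10 for the assembly factors and 0.48 for the 3 activator or inhibitor genes. The differences between classes were not tested.

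**Figure D2:**
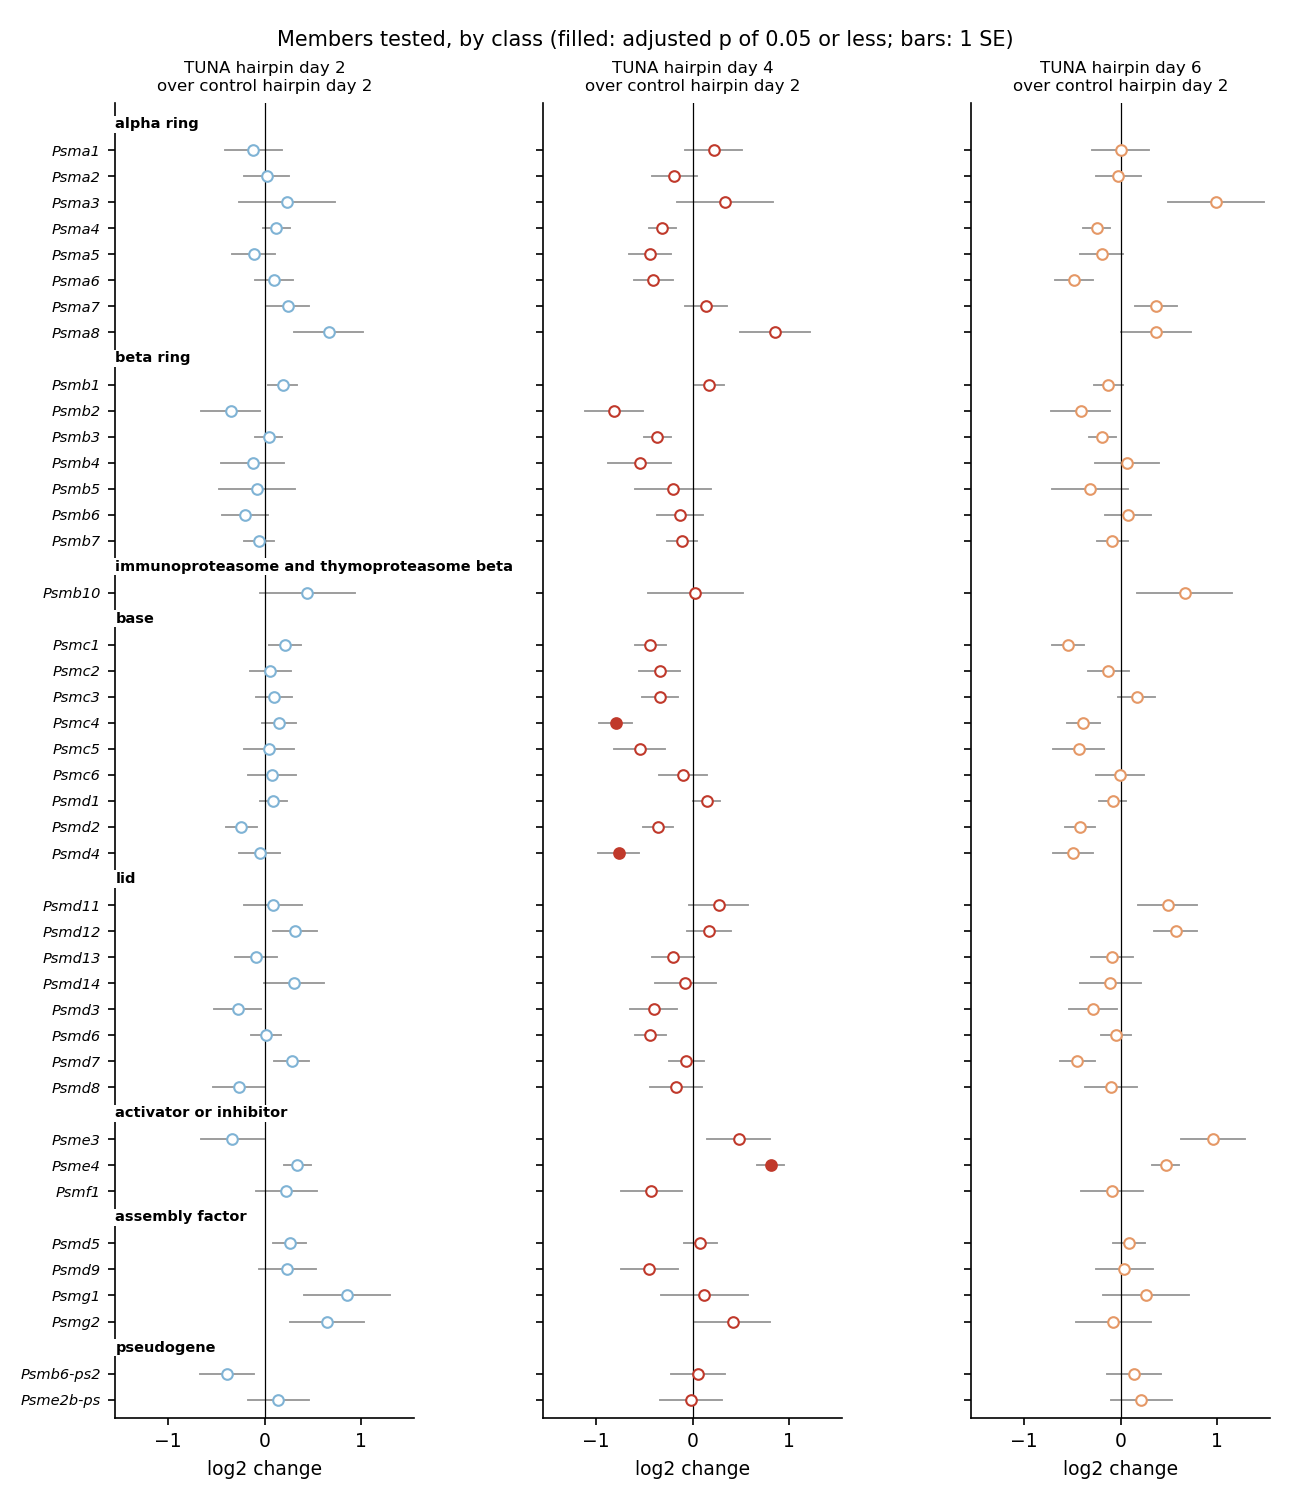
Log2 change (points) with its SE (bars) of each tested member at each day with the TUNA hairpin over the control at day 2, by class; filled points have a limma adjusted p of 0.05 or less. Filled points occur only at day 4, for Psmc4, Psmd4 and Psme4, and 8 of the 9 base genes lie left of 0 there.

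The windows before the start of the activator genes Psme4 and Psme3 and of the base genes Psmc4 and Psmd4 are shown as 4 of the 6 genes past the threshold in any comparison, a pair from each of the activators and the base (RefSeq, GRCm38.p6, 5′ to 3′ on the gene's strand). Capitals mark GGGCGG, the GC box bound by Sp factors, and CCAAT, the CCAAT box, searched on both strands, so that a match on the other strand reads CCGCCC or ATTGG. The last 49 bases before the start of Psme4 and the last 9 of Psmc4 are left off because annotated transcripts cover them.
Psme4, chr11:30771525-30771725, plus strand: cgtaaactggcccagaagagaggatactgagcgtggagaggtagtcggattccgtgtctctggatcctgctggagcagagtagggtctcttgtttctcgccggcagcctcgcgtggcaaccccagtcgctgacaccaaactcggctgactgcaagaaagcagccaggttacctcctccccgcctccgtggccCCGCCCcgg
Psme3, chr11:101315963-101316212, plus strand: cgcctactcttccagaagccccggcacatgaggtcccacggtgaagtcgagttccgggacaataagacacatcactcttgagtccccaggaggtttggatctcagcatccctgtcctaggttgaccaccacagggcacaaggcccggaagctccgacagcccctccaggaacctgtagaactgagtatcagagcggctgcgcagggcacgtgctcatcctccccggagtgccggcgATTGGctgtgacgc
Psmc4, chr7:28050102-28050342, minus strand: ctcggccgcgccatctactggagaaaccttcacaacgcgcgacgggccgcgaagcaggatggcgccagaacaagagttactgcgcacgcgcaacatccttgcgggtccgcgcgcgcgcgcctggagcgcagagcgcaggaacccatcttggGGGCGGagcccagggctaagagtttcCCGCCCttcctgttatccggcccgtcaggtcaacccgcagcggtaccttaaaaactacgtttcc
Psmd4, chr3:95042615-95042864, minus strand: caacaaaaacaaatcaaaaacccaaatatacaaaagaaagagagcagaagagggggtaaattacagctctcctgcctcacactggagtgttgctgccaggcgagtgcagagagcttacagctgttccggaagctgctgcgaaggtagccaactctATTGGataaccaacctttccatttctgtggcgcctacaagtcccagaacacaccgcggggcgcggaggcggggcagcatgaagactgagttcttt

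Neither pair shown shares its matches. Psme4 has a GC box 58 bases before the start and Psme3 a CCAAT box 14 bases before it. Psmc4 has GC boxes 99 and 73 bases before the start and Psmd4 a CCAAT box 95 bases before it. The matches in the windows shown do not overlap. The base gene Psmc1, also past the threshold but not shown, has a CCAAT match, as Psmd4 does. The core of the antioxidant response element, TGACNNNGC, through which Nfe2l1 and Nfe2l2 act, has no match in the 4 windows shown. That says only that these letters are not there. Over the 44 windows of 41 members, TGACNNNGC was in 11.36% (Psmb5, Psmb6, Psmc6, Psmd12 and Psmd9), CCAAT in 34.09% and GGGCGG in 52.27%. In all 32851 windows of the same 250 bases the shares were 10.16%, 33.85% and 32.74%, and for GGGCGG the share was 60.08% in the windows of rows tested, where tested members had 17 of 34. None of the 5 genes with TGACNNNGC passed the threshold in any comparison. Of all 42 tested members at most 9.52% passed in a single comparison (day 4 against day 2, where 7.66% of all rows did). A count of 0 among 5 therefore says nothing about the motif.

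Of the 4 genes that fell past the threshold in any comparison, 3 are base genes, a class with 9 of the 42 tested members. In the comparisons where they fell, 2.54% to 7.76% of all rows were called lower. These comparisons share libraries, and no share of all rows over any comparison was taken. Of the 3, Psmc1 without its near-identical copy passed only against day 2, and only Psmc4 kept its calls with each library left out. Psmc4 and Psmd4 were lower in TUNA hairpin cells at day 4 than in control hairpin cells, and 8 of the 9 base genes had a log2 change below 0 at day 4, as at day 6. Summed over the base, TUNA hairpin libraries had 1940, 1893 and 2060 normalized counts at day 2, 1340, 1389 and 1704 at day 4 and 1538, 1434 and 1670 at day 6, against 2229, 1756 and 1827 in control hairpin libraries. All libraries of day 4 and day 6 lay below all of day 2 and of the control. Psmd4, itself past the threshold at day 4, was the largest term of these sums. Its mean was 782 in control hairpin cells and 470 in TUNA hairpin cells at day 4. Psmd1, the next largest term, had means of 442 and 492. The stem cell marker sums also lay below the control at each day, lowest at day 6. By gene the 8 markers were mixed, with a log2 change above 0 in 3 at day 2, 4 at day 4 and 1 at day 6. The part of the markers in these results was not tested.

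Psmc4, an ATPase of the unfolding ring, had 177, 172 and 186 normalized counts in TUNA hairpin cells at day 2, 94.6, 96.1 and 85.1 at day 4 and 130.4, 146 and 96.85 at day 6, against 164.6, 133.8 and 187.2 in control hairpin cells. The 3 libraries of day 4 lay below the other 9, but the gap to day 6 (96.1 against 96.85) was less than 1 read. The mean was 91.9 ± 5.97 at day 4 and 161.9 ± 26.8 in control hairpin cells (SD, n = 3 each), a log2 change of −0.80 ± 0.172 (SE, limma adjusted p = 0.00486), and against TUNA hairpin cells at day 2 it was −0.95 ± 0.172 (limma adjusted p = 0.00263). At day 6 the change against the control was −0.38 (limma adjusted p = 0.227). Psmc4 has no near-identical copy and no overlapping gene in GENCODE M21.

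Psmd4, the ubiquitin receptor, had 703.1, 713.2 and 818.6 normalized counts in TUNA hairpin cells at day 2, 312, 479 and 619 at day 4 and 562.5, 457 and 636 at day 6, against 983, 655 and 708 in control hairpin cells. The libraries of day 4 and day 6 lay below those of day 2 and of the control, with a wide spread within each group. The log2 change at day 4 was −0.77 ± 0.212 against the control (limma adjusted p = 0.0216) and −0.72 ± 0.212 against day 2 (limma adjusted p = 0.0473). The call against the control was lost without TUNA hairpin day 4 replicate 1 (−0.50, limma adjusted p = 0.101), without replicate 2 (−0.81, limma adjusted p = 0.0519) and without control replicate 1 (−0.59, limma adjusted p = 0.109). The call against day 2 was lost with 5 of 6 libraries left out (limma adjusted p up to 0.186, with a change of −0.45, without TUNA hairpin day 4 replicate 1), with limma-voom weights (adjusted p = 0.0504) and with no filter on low values (limma adjusted p = 0.0683).

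Psmc1, another ATPase of the ring, had 166.2, 168.6 and 157.4 normalized counts in TUNA hairpin cells at day 2, 103.3, 89.1 and 123.6 at day 4 and 99.2, 102.3 and 89.3 at day 6, against 170.8, 135.9 and 122.2 in control hairpin cells. It fell against day 2 both at day 4 (−0.65 ± 0.165, limma adjusted p = 0.0227) and at day 6 (−0.76 ± 0.165, limma adjusted p = 0.0146), without overlap in either case. Against the control the changes were −0.44 at day 4 and −0.54 at day 6 (limma adjusted p = 0.0848 and 0.0601). Its near-identical copy Gm9575 had 93.0 to 188.3 normalized counts, a level like that of Psmc1 itself. With the copy added, Psmc1 had 344, 332 and 344 normalized counts at day 2, 196, 190.4 and 237 at day 4 and 196, 199 and 206 at day 6 in TUNA hairpin cells, against 359, 287 and 246 in control hairpin cells. The sum passed the threshold against the control at day 4 (−0.50, limma adjusted p = 0.0309) and at day 6 (−0.55, limma adjusted p = 0.036). The call against day 2 without the copy was lost with 5 of 6 libraries left out for day 4 (limma adjusted p up to 0.118) and with 3 of 6 for day 6 (up to 0.0594).

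The other 4 ATPases differed less from the control at day 4: the log2 changes were −0.34 for Psmc2, −0.34 for Psmc3, −0.55 for Psmc5 and −0.10 for Psmc6 (limma adjusted p = 0.308, 0.244, 0.172 and 0.84). For the 6 ATPases together the median was 0.09 at day 2, with 6 of 6 above 0, −0.39 at day 4, with 0 of 6 above 0, and −0.26 at day 6, with 1 of 6 above 0. Psmd1, a large scaffold of the base, had 512, 467 and 435 normalized counts in TUNA hairpin cells at day 2, 494, 429.7 and 553 at day 4 and 428, 372 and 457 at day 6, against 471, 411 and 444 in control hairpin cells, and its groups overlapped in every comparison. The small nucleolar RNA Gm22786 overlaps the span of Psmd1 on the same strand. The counting rule is not stated, so whether its reads were counted in Psmd1 is not known. Psmd2, the other scaffold, had log2 changes of −0.24, −0.36 and −0.42 at day 2, day 4 and day 6 (limma adjusted p = 0.581, 0.137 and 0.136).

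**Figure D3:**
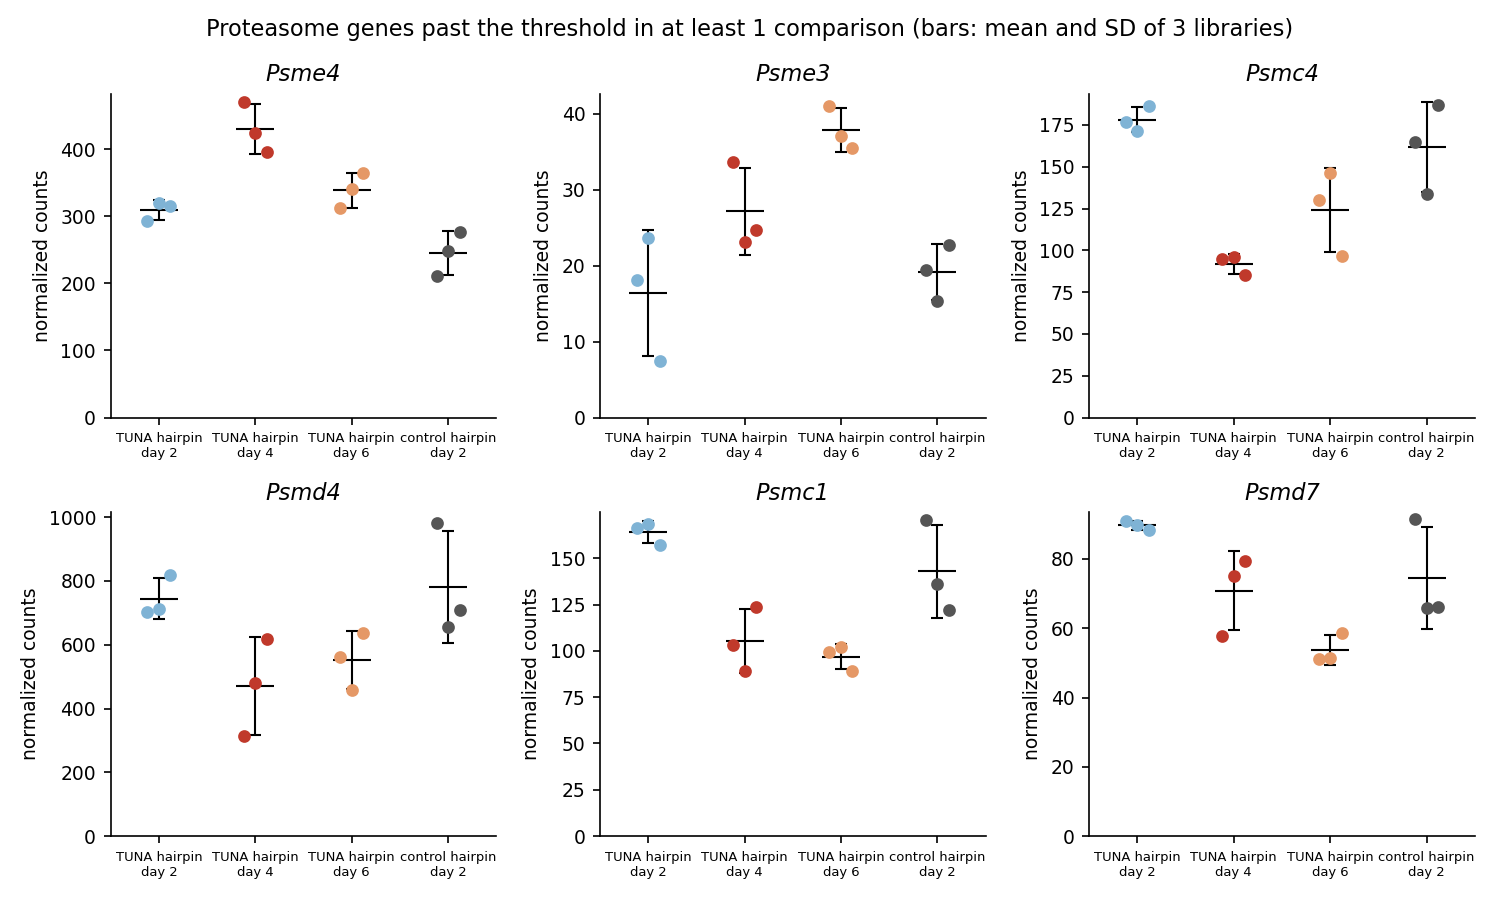
Normalized counts in each library (points) with the mean and SD of 3 libraries (bars) for the 6 genes past the threshold in at least 1 of 6 comparisons. Psmc4 is lowest at day 4 (85.1 to 96.1), Psme4 highest at day 4 (396 to 469.9), and Psme3 highest at day 6 (35.5 to 41.0).

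No gene of the core passed in any of the 6 comparisons by limma. Of its 15 alpha and beta ring genes, 5 had a log2 change above 0 and 10 below 0 at day 4 against the control. At an unadjusted limma p under 0.05, 1 of the 15 was higher and 3 were lower at day 4 (14.4% and 15.5% of all rows), 0 and 1 at day 6 (8.96% and 10.5% of all rows), and 0 and 0 at day 2 (5.94% and 6.33% of all rows). Psmb2, a beta ring subunit without a catalytic site, had 18.7, 18.1 and 18.3 normalized counts in TUNA hairpin cells at day 2, 20.6, 7.94 and 13.4 at day 4 and 14.9, 18.7 and 19.3 at day 6, against 25.3, 20.997 and 25.1 in control hairpin cells. All 9 TUNA hairpin libraries lay below the 3 control libraries. The gap between TUNA hairpin day 4 replicate 1 (20.6) and control replicate 2 (20.997) was less than 1 read. The changes of −0.35, −0.81 and −0.42 at day 2, day 4 and day 6 did not pass (limma adjusted p = 0.699, 0.0783 and 0.501). Without TUNA hairpin day 4 replicate 1 the day 4 change passed (limma adjusted p = 0.0258).

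None of the 3 catalytic subunits of the constitutive core passed. At day 4 the log2 change was −0.20 ± 0.393 for Psmb5, the chymotrypsin-like site, −0.13 ± 0.239 for Psmb6, the caspase-like site, and −0.11 ± 0.157 for Psmb7, the trypsin-like site (limma adjusted p = 0.778, 0.771 and 0.691). At day 6 it was −0.32, 0.07 and −0.08 (limma adjusted p = 0.732, 0.908 and 0.833). Psmb7, the most precise of these, had 99.5, 115.4 and 103.0 normalized counts in TUNA hairpin cells at day 2, 99.7, 101.0 and 106.3 at day 4 and 108.9, 104.0 and 99.55 at day 6, against 131.7, 93.8 and 108.7 in control hairpin cells.

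Psmb1, the beta ring gene with the highest mean over all 12 libraries, had 317, 306 and 328 normalized counts in TUNA hairpin cells at day 2, 299, 360.3 and 288 at day 4 and 276, 273 and 219 at day 6, against 255, 258 and 327 in control hairpin cells. Each day overlapped the control, while day 6 lay below day 2 and day 4. Psmb3, the beta ring gene with the highest level per kilobase, had 214, 241.5 and 222 normalized counts in TUNA hairpin cells at day 4, against 299, 291 and 282 in control hairpin cells. These groups did not overlap, and the change of −0.37 ± 0.138 did not pass (limma adjusted p = 0.0843). Its copy Gm4950 had 67.1 to 126 normalized counts.

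In the alpha ring, Psma4 had 225.5, 225.0 and 225.5 normalized counts in TUNA hairpin cells at day 2, 149, 191 and 162 at day 4 and 183.5, 180.6 and 159 at day 6, against 223, 197 and 201 in control hairpin cells. Day 4 and day 6 lay below both other groups without overlap, with a log2 change at day 4 of −0.31 ± 0.14 against the control (limma adjusted p = 0.142) and −0.44 ± 0.14 against day 2 (limma adjusted p = 0.065). Psma8, which replaces another alpha subunit in the proteasome of male germ cells, had the largest change of the ring at day 4. It had 32.2, 23.4 and 62.5 normalized counts in TUNA hairpin cells at day 2, 28.8, 35.1 and 69.5 at day 4 and 27.7, 27.1 and 33.2 at day 6, against 26.8, 29.7 and 14.1 in control hairpin cells. The groups overlapped at each day, and the day 4 change of 0.85 ± 0.362 did not pass (limma adjusted p = 0.123).

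In the lid, 6 of the 8 genes had a log2 change below 0 at day 4 and at day 6 against the control, and none passed by limma against the control. At an unadjusted p under 0.05 there were 0 higher and 1 lower at day 4, where 14.4% and 15.5% of all rows were, 1 and 1 at day 6, where 8.96% and 10.5% were, and 0 and 0 at day 2, where 5.94% and 6.33% were. Psmd14, the deubiquitinase that removes the chain, had 175.0, 200.8 and 301.2 normalized counts in TUNA hairpin cells at day 2, 117, 151 and 272 at day 4 and 183, 98.3 and 251 at day 6, against 220.3, 161 and 158 in control hairpin cells. Its libraries spread more within the TUNA hairpin groups than the groups differed, with log2 changes of 0.31, −0.07 and −0.10 at day 2, day 4 and day 6 (SE 0.314). The ribosomal RNA gene Gm25966 overlaps the span of Psmd14 on the same strand, and whether its reads were counted in Psmd14 is not known. Psmd6, a structural lid subunit, had 148, 127 and 152 normalized counts in TUNA hairpin cells at day 2, 109, 102 and 99.6 at day 4 and 123.5, 130.3 and 156 at day 6, against 157, 117.5 and 150.3 in control hairpin cells. The day 4 libraries of Psmd6 lay below all others, with a change of −0.44 ± 0.159 that did not pass (limma adjusted p = 0.0728).

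Psmd7, the lid subunit that pairs with Psmd14, fell between day 2 and day 6 of the TUNA hairpin. It had 91.0, 89.7 and 88.35 normalized counts in TUNA hairpin cells at day 2, 57.8, 75.2 and 79.4 at day 4 and 51.0, 51.4 and 58.7 at day 6, against 91.45, 65.7 and 66.1 in control hairpin cells. Day 6 lay below day 2 and below the control without overlap. The log2 change was −0.73 ± 0.182 against day 2 (limma adjusted p = 0.0286) and −0.45 ± 0.182 against the control (limma adjusted p = 0.174). The call against day 2 was lost with 5 of 6 libraries left out (limma adjusted p up to 0.108). The structural lid gene Psmd12 went the other way at day 6, with a change of 0.57 ± 0.227 against the control that did not pass (limma adjusted p = 0.166).

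Both genes that rose past the threshold in any comparison are activators, from a class with 3 of the 42 tested members. In the comparisons where they rose, 1.96% to 6.99% of all rows were called higher. Psme4, an activator found mainly in the nucleus and known for its work on histones and in germ cells, rose at day 4, and Psme3, the nuclear activator that works without ubiquitin, rose between day 2 and day 6. Psme4 had 292, 320.2 and 316 normalized counts in TUNA hairpin cells at day 2, 469.9, 425 and 396 at day 4 and 312, 340.0 and 364 at day 6, against 211, 249 and 277 in control hairpin cells. All 9 TUNA hairpin libraries lay above the 3 control libraries, and the 3 of day 4 above the other 9. The means were 309 ± 15.0 at day 2, 430.1 ± 37.5 at day 4 and 339 ± 26.2 at day 6, against 246 ± 32.8 in control hairpin cells (SD, n = 3 each). The log2 change against the control was 0.34 ± 0.139 at day 2 (limma adjusted p = 0.323), 0.81 ± 0.139 at day 4 (limma adjusted p = 0.000872) and 0.47 ± 0.139 at day 6 (limma adjusted p = 0.054). Day 4 also exceeded day 2, by 0.47 (limma adjusted p = 0.0465), a call lost with 5 of 6 libraries left out (limma adjusted p up to 0.144) and with no filter on low values (limma adjusted p = 0.0623). Psme4 has no near-identical copy, but the processed pseudogene Gm12103 overlaps it on the other strand, and strand is not given for the counts.

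Psme3 had 18.1, 23.7 and 7.395 normalized counts in TUNA hairpin cells at day 2, 33.7, 23.1 and 24.7 at day 4 and 41.0, 37.2 and 35.5 at day 6, against 19.5, 15.3 and 22.8 in control hairpin cells. These rest on 5.19 to 54.65 reads per library. Day 4 and day 6 lay above the control without overlap, and day 6 above all other libraries. For day 4 the gap between 23.1 and the control's 22.8 was less than 1 read. The log2 change at day 6 was 1.29 ± 0.328 against day 2 (limma adjusted p = 0.0314) and 0.96 ± 0.328 against the control (limma adjusted p = 0.0984), and at day 4 against the control 0.48 (limma adjusted p = 0.353). The call against day 2 was lost with 5 of 6 libraries left out (limma adjusted p up to 0.134, with a change of 0.84, without TUNA hairpin day 2 replicate 3) and with only the 2 groups compared (limma adjusted p = 0.054). At day 6, where Psme3 was highest and Psmc1 and Psmd7 lowest, the summed stem cell markers were also lowest and the summed fibroblast markers highest. Of the 9 fibroblast markers, 4 were above 0. Their part in these results was not tested, and fewer cells of a type and less RNA per cell cannot be told apart in bulk RNA.

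Psmf1, the inhibitor of the core, had 19.3, 13.6 and 22.2 normalized counts in TUNA hairpin cells at day 2, 12.3, 9.20 and 11.98 at day 4 and 10.49, 15.9 and 17.4 at day 6, against 17.3, 11.04 and 18.6 in control hairpin cells. Its day 4 change of −0.43 ± 0.317 did not pass (limma adjusted p = 0.394), and the groups overlapped. Of the interferon-induced activator pair, Psme1 had 6.271, 3.889 and 1.325 normalized counts in TUNA hairpin cells at day 2, 4.612, 5.548 and 2.872 at day 4 and 3.392, 7.701 and 4.902 at day 6, against 1.622, 2.629 and 3.253 in control hairpin cells. It was not tested, with at most 9.88 reads in a library. Its day 6 libraries lay above the control, but the gap between 3.392 and 3.253 was less than 1 read. Psme2 was listed at 0, with its copy Psme2b-ps at 32.5, 25.0 and 21.4 in TUNA hairpin cells at day 2, 25.4, 13.1 and 36.7 at day 4 and 27.8, 33.5 and 21.8 at day 6, against 20.7, 29.4 and 20.95 in control hairpin cells. The groups of Psme2b-ps overlapped at each day, with log2 changes of 0.14, −0.02 and 0.21 (SE 0.317).

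The inducible catalytic subunits, which replace the constitutive ones in immune cells and after interferon, were low. Psmb8 was above 0 only in TUNA hairpin day 4 replicate 2, at 1.11 normalized counts, and Psmb9 only in day 2 replicate 1, at 1.12, and in day 4 replicate 2, at 2.23. Psmb10 had 15.1, 5.415 and 29.3 normalized counts in TUNA hairpin cells at day 2, 4.98, 10.2 and 18.7 at day 4 and 13.4, 13.8 and 22.3 at day 6, against 9.31, 10.1 and 9.86 in control hairpin cells. Its day 6 libraries lay above the control without overlap, but the change of 0.67 ± 0.495 did not pass (limma adjusted p = 0.511). Of 20 interferon and antigen processing genes, 5 were tested and none passed by limma in any comparison (at an unadjusted p under 0.05, 0 at day 2 and at day 4 and 1 lower at day 6 against the control). Of all rows, 5.94% were higher and 6.33% lower at day 2, 14.4% and 15.5% at day 4, and 8.96% and 10.5% at day 6. Their sum was 88.2–98.2 normalized counts at day 2, 88.2–103 at day 4 and 87.1–99.4 at day 6 in TUNA hairpin libraries, against 67.1–96.1 in control hairpin libraries. Below the level tested, the peptide transporter Tap1 had 3.12 to 11.3 normalized counts in the 9 TUNA hairpin libraries, against 0 to 1.73 in control hairpin libraries. H2-K1, an antigen-presenting molecule, had 3.41 to 11.3 in TUNA hairpin libraries, against 1.67 to 2.76 in control hairpin libraries, and neither gene overlapped the control. These 2 genes were named after their values were seen. Others of the list below the level tested, such as B2m, Tapbp and Ifit2, overlapped the control. For H2-K1 the gap between 2.76 and 3.41 was less than 1 read.

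Among the assembly factors, Psmg1 to Psmg4 are chaperones that build the alpha ring and Psmd5, Psmd9 and Psmd10 chaperones of the base. All 4 tested members had a log2 change above 0 at day 2 against the control (0.24 to 0.86), and none passed by limma there or in another comparison (at an unadjusted p under 0.05, 0 against the control at each day). Of all rows, 5.94% were higher and 6.33% lower at day 2. At day 4 14.4% and 15.5% were, and at day 6 8.96% and 10.5%. Psmg1 had 20.9, 21.75 and 22.4 normalized counts in TUNA hairpin cells at day 2, 11.6, 19.7 and 8.70 at day 4 and 21.95, 21.8 and 5.53 at day 6, against 15.6, 6.88 and 14.0 in control hairpin cells. Day 2 lay above the control without overlap, with a change of 0.86 ± 0.447 (limma adjusted p = 0.464).

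Psmg2 had 11.2, 10.8 and 15.7 normalized counts in TUNA hairpin cells at day 2, 7.82, 14.8 and 9.67 at day 4 and 6.185, 7.75 and 7.49 at day 6, against 5.18, 6.74 and 12.02 in control hairpin cells, with overlap at each day. Psmd5 had 76.7, 81.1 and 88.0 normalized counts in TUNA hairpin cells at day 2, 69.9, 78.4 and 68.2 at day 4 and 63.2, 80.0 and 74.8 at day 6, against 66.95, 58.8 and 79.8 in control hairpin cells. Psmd9 had 21.2, 23.8 and 41.3 normalized counts in TUNA hairpin cells at day 2, 11.7, 18.2 and 22.0 at day 4 and 19.5, 27.2 and 25.6 at day 6, against 19.7, 27.5 and 23.1 in control hairpin cells. Both overlapped the control at each day. Psmg3 had 1.12, 2.27 and 4.275 normalized counts in TUNA hairpin cells at day 2, 6.807, 1.117 and 2.444 at day 4 and 5.194, 3.117 and 5.689 at day 6, against 0, 2.703 and 3.308 in control hairpin cells. Psmg4 had 4.423, 0 and 1.425 normalized counts in TUNA hairpin cells at day 2, 1.954, 1.14 and 0 at day 4 and 2.927, 2.946 and 0 at day 6, against 1.726, 2.759 and 1.103 in control hairpin cells. Neither was tested, at no more than 10.45 reads in a library. Psmd10 was not tested either and had 3.225, 4.461 and 4.275 normalized counts in TUNA hairpin cells at day 2, 5.74, 7.408 and 6.111 at day 4 and 5.209, 2.26 and 0 at day 6, against 1.708, 3.679 and 2.128 in control hairpin cells. The day 4 libraries of Psmd10 lay above the other 9, but the gap between 5.74 and 5.209 was less than 1 read. Psmd10 had at most 8.81 reads in a library.

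The class medians show how far single libraries decided these patterns. Each library's log2 difference from the control mean of each gene gave, over the 9 base genes, medians of −0.03, 0.04 and 0.15 in TUNA hairpin cells at day 2, −0.23, −0.51 and −0.31 at day 4 and −0.36, −0.25 and −0.22 at day 6, against 0.16, −0.10 and −0.12 in control hairpin cells. All 6 libraries of day 4 and day 6 lay below the lowest control. The control libraries make up the control mean themselves, so their differences centre on 0 for each gene. The 3 activator or inhibitor genes had medians of 0.26 to 0.80 in all 9 TUNA hairpin libraries, against −0.29 to 0.25 in control hairpin libraries. These did not overlap, but by a narrow margin (0.258 against 0.252), and a median of 3 genes is the value of 1. The class did not rise as a whole. Psme3 changed by −0.335 at day 2 and Psmf1 by −0.43 at day 4 against the control, with 2 of 3 genes above 0 on each of those days. The 4 assembly factors had medians of 0.34, 0.36 and 0.85 in TUNA hairpin cells at day 2, against −0.13, −0.17 and 0.24 in control hairpin cells, also without overlap, and overlapped the control at day 4 and day 6. Over the 7 beta ring genes the day 4 medians were 0.10, −0.32 and −0.35, against −0.12, −0.11 and 0.23 in control hairpin cells, which overlap, as did the alpha ring and the lid at each day. Over all 42 members the medians were 0.10, 0.06 and 0.10 at day 2, −0.13, −0.22 and −0.16 at day 4 and −0.12, 0.13 and −0.12 at day 6 in TUNA hairpin cells, against 0.07, −0.11 and 0.01 in control hairpin cells. Without overlap, 8 members (19%) lay below the control at day 4 and 2 (4.76%) above, where 16.9% and 15.5% of all rows did. Day 4 lay below day 2 without overlap in 12 members (28.6%), where 14.3% of all rows did, and above in 2 (4.76%), where 14.2% did. Day 6 lay below day 2 in 9 (21.4%) and above in 1 (2.38%), where 13.4% and 11.2% of all rows did. At day 6, 4 members (9.52%) lay above the control and 6 (14.3%) below, where 11.2% and 12.8% of all rows did. At day 2 it was 4 (9.52%) above and 3 (7.14%) below, where 9.76% and 10.3% did. Day 6 lay above day 4 in 3 members (7.14%) and below in 3, where 11.5% and 11.8% did. The residual SD of a member was 0.33 on the log2 scale in the median, as for all rows (0.33).

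**Figure D4:**
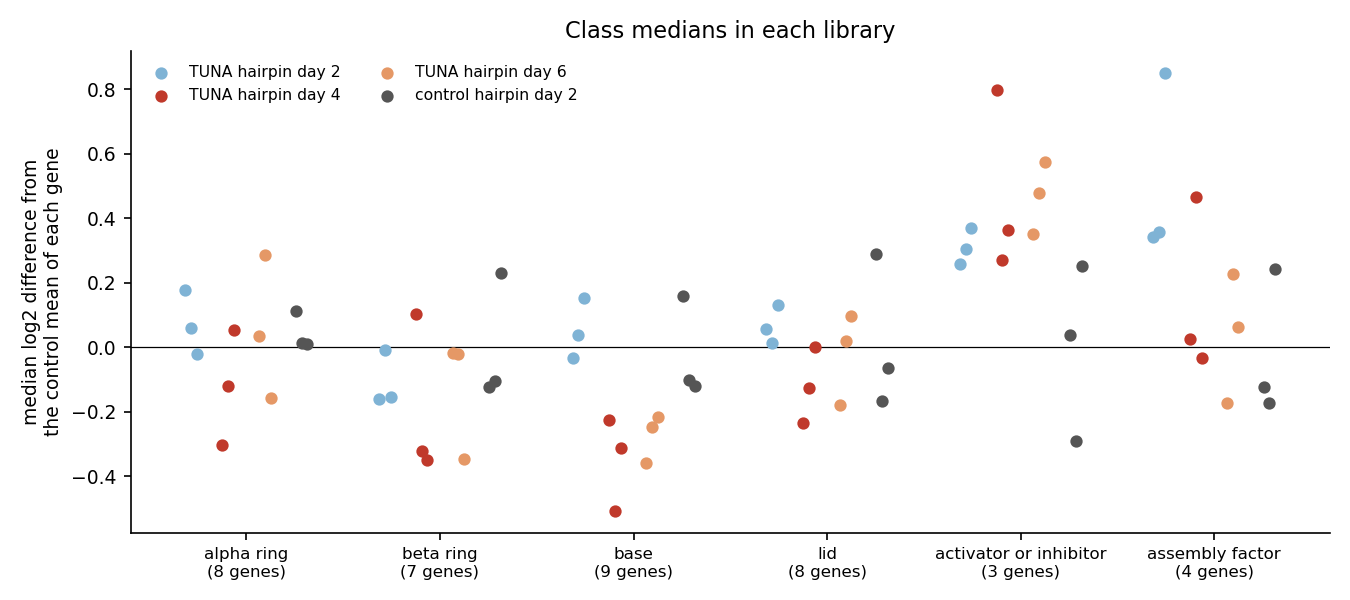
Median over the genes of a class of the log2 difference from each gene's control mean, 1 point per library, for 6 classes and 4 groups. The base lies below the lowest control library (−0.12) in all 6 libraries of day 4 and day 6. The median of the 3 activator or inhibitor genes exceeds the highest control library in all 9 TUNA hairpin libraries. Its lowest value there is 0.258, against 0.252. The alpha ring, beta ring and lid overlap the control.

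Of the genes that feed the proteasome, 39 on 4 lists are reported here and 33 were tested. Against the control 6 of the 33 (18.2%) passed at day 4, each lower, where 14.7% of all rows passed and 7.76% were lower. These were 0 of 10 proteasome parts with other symbols, 1 of 7 genes that regulate proteasome genes, 2 of 5 ubiquitin and ubiquitin-activating genes and 3 of 11 shuttles and partners of the unfoldase Vcp. Uba1, the main ubiquitin-activating enzyme, had 162, 138 and 155 normalized counts in TUNA hairpin cells at day 2, 83.9, 66.8 and 70.6 at day 4 and 119.6, 114 and 78.4 at day 6, against 143, 150.5 and 165 in control hairpin cells. It fell at day 4 against the control (−1.04 ± 0.174, limma adjusted p = 0.000743) and against day 2 (−1.03, limma adjusted p = 0.00159), and the day 4 libraries overlapped only those of day 6. Uba6, the other activating enzyme, had 101.4, 134.9 and 115 normalized counts in TUNA hairpin cells at day 2, 110.5, 100.6 and 102.2 at day 4 and 136.6, 107.9 and 120.7 at day 6, against 152.3, 162.4 and 154.5 in control hairpin cells. All 9 TUNA hairpin libraries lay below the control, and it fell by 0.58 at day 4 (limma adjusted p = 0.0171).

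Nploc4, the Vcp partner that brings ubiquitinated proteins to be unfolded, had 131.0, 131.2 and 125 normalized counts in TUNA hairpin cells at day 2, 59.4, 51.2 and 65.9 at day 4 and 98.9, 99.1 and 127 at day 6, against 169, 140.5 and 145 in control hairpin cells. Its day 4 libraries lay below the other 9. It fell at day 4 against the control (−1.35 ± 0.161, limma adjusted p = 4.36e-05) and was higher at day 6 than at day 4 (0.87, limma adjusted p = 0.0035). Nsfl1c, another Vcp partner, had 35.31, 36.95 and 32.6 normalized counts in TUNA hairpin cells at day 2, 24.13, 32.73 and 18.66 at day 4 and 36.82, 40.47 and 24.58 at day 6, against 55.37, 51.97 and 40.29 in control hairpin cells. It fell at day 4 against the control (−0.96, limma adjusted p = 0.0136), without overlap.

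Of the shuttles, which carry ubiquitinated proteins to the proteasome, Ubqln4 had 54.89, 68.98 and 63.29 normalized counts in TUNA hairpin cells at day 2, 49.96, 46.47 and 49.37 at day 4 and 67.87, 55.86 and 86.93 at day 6, against 65.66, 76.85 and 83.71 in control hairpin cells. It lay below the control at day 4 without overlap and fell by 0.62 (limma adjusted p = 0.0353). Ubqln2 had 17.92, 17.03 and 9.974 normalized counts in TUNA hairpin cells at day 2, 24.75, 28.33 and 35.44 at day 4 and 28.32, 27.28 and 42.67 at day 6, against 24.98, 33.95 and 30.11 in control hairpin cells. It was higher at day 4 and at day 6 than at day 2 (0.96 and 1.09, limma adjusted p = 0.0387 and 0.0287), without overlap, while each of those days overlapped the control. Zfand2a, a stress-induced proteasome adaptor, had 12.32, 10.04 and 14.03 normalized counts in TUNA hairpin cells at day 2, 3.908, 6.838 and 2.444 at day 4 and 23.27, 12.79 and 17.03 at day 6, against 6.903, 7.358 and 15.44 in control hairpin cells. It was higher at day 6 than at day 4 (1.84, limma adjusted p = 0.0135), without overlap.

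Of the regulators, Ddi2, the protease that frees Nfe2l1 to act, had 99.3, 84.1 and 93.9 normalized counts in TUNA hairpin cells at day 2, 38.8, 39.6 and 61.1 at day 4 and 76.2, 53.6 and 96.1 at day 6, against 123.2, 94.2 and 77.9 in control hairpin cells. It fell at day 4 against the control (−1.07 ± 0.233, limma adjusted p = 0.00516). Nfe2l1 itself had 63.8, 68.0 and 67.3 normalized counts in TUNA hairpin cells at day 2, 79.4, 92.5 and 100.2 at day 4 and 72.6, 59.96 and 68.2 at day 6, against 75.2, 76.2 and 71.2 in control hairpin cells. Its day 4 libraries lay above all others, and the change of 0.28 ± 0.16 did not pass (limma adjusted p = 0.257). Nfe2l2, the related stress factor, had 76.83, 88.54 and 104 normalized counts in TUNA hairpin cells at day 2, 67.19, 82.36 and 120.9 at day 4 and 36.78, 29.31 and 73 at day 6, against 91.56, 80.52 and 79.4 in control hairpin cells. It fell at day 6 against the control (−0.95 ± 0.273, limma adjusted p = 0.0471), without overlap. Pomp, the chaperone that helps the beta ring form, had 23.4, 18.03 and 11.3 normalized counts in TUNA hairpin cells at day 2, 15.5, 13.0 and 16.6 at day 4 and 30.7, 25.97 and 9.42 at day 6, against 14.55, 16.1 and 25.0 in control hairpin cells, with overlap at each day. At day 6 Nfe2l2 was the passing gene of these 33 (3.03%), where 6.21% of all rows passed. At day 2 none passed by limma, where 0.961% of all rows did, and at an unadjusted p under 0.05, 0 were higher and 4 lower, where 5.94% and 6.33% of all rows were. The lists hold genes chosen with earlier results of these data known and were not tested as lists.

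**Figure D5:**
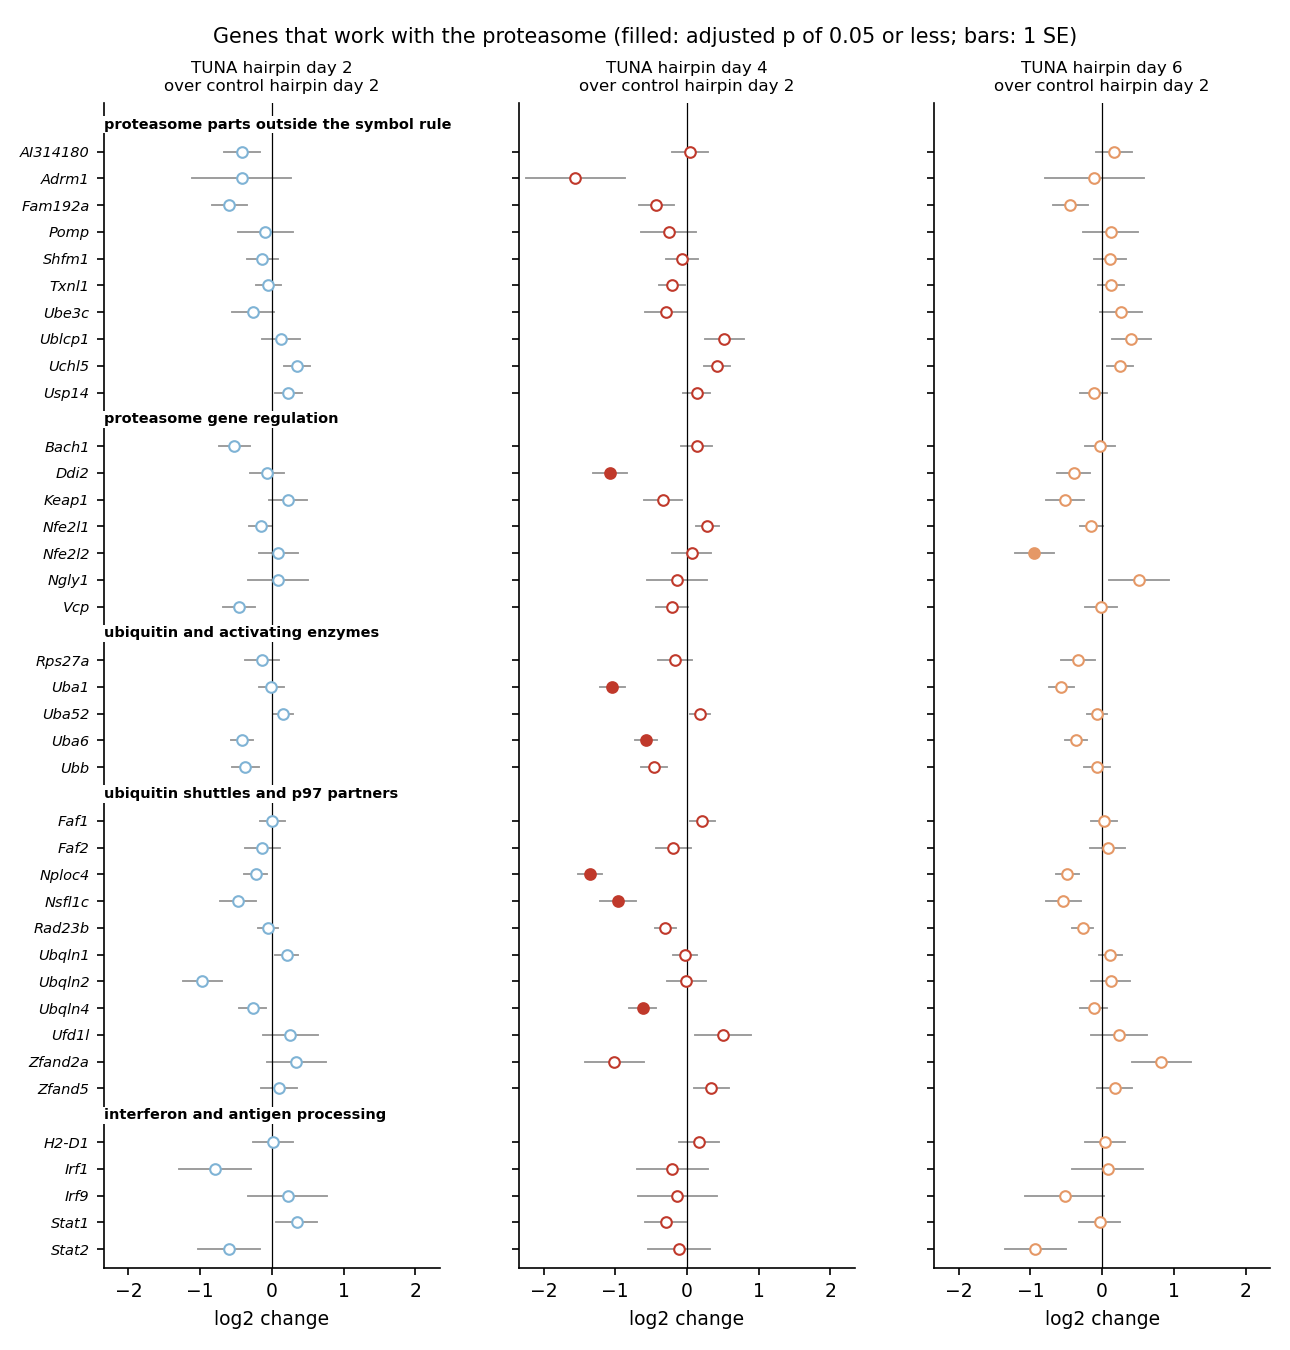
Log2 change (points) with its SE (bars) of genes that work with the proteasome at each day with the TUNA hairpin over the control at day 2, by list; filled points have a limma adjusted p of 0.05 or less. At day 4 there are 6 filled points, all left of 0, and at day 6 there is 1, Nfe2l2.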

How the data were processed

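RNA-seq of 12 libraries (3 in each of 4 groups) was analysed from 1 deposited table. The authors deposited normalized counts on a log2 scale. BWA, DESeq and mm9 are named in the submitters' processing notes, which give neither their roles nor their versions, and the counting rule is not stated. The mm9 annotation was not used, so lengths, copies and sequences come from GRCm38 (GENCODE M21 for 54 of 55 members, RefSeq for promoters), and exon lengths may differ from those counted. Low values fell within 0.02 of a whole read in only 44.3% to 56.7% of cases, so no count model was used.

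The log2 values were raised to normalized counts, with those at 0 set to 0. The 8739 rows that reached 10 normalized counts in 3 or more libraries were fitted as log2(value + 1), a scale that understates the change of low genes, with limma 3.58.1 in R 4.3.3. The fit had a coefficient for each of the 4 groups, a trend of variance with level, 8 residual and 9.48 prior degrees of freedom. Tests were two-sided, adjusted by Benjamini-Hochberg over all rows within each of 6 comparisons, with a threshold of 0.05. The fit was tested on simulated data. Near-identical copies were found with BLAST 2.17.0+. Values in every library are given for members past the threshold, the most abundant and the most changed member of each class, and a fixed set of inducible subunits, activators and assembly factors. In the pathway lists 2 further genes are not reported here. Members and lists were chosen with earlier results of these data known. Alternatives were 2 other scalings, 2 other filters, a pseudocount of 5, limma-voom weights, the 2 groups alone, a replicate block, each library left out and, chosen after seeing the data, copies added to members. Plots used matplotlib 3.10.9 (Python 3.11.15).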

Additional observations from a re-analysis of the deposited data

Results flagged for a closer look

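For 7 results the change against the control differed between days, by the test of the difference itself in the limma fit (day against day, threshold 0.05 after adjustment). Between day 4 and day 2 the difference was −0.65 for Psmc1, −0.95 for Psmc4, −0.72 for Psmd4 and 0.47 for Psme4 on the log2 scale. Between day 6 and day 2 it was −0.76 for Psmc1, −0.73 for Psmd7 and 1.29 for Psme3. Of these 7, the call of Psmc4 held with each of the 6 libraries left out. No explanation was tested.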

How the results depend on the processing

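In day 4 against the control, Psme4 and Psmc4 passed in each of 9 other settings and with each of 6 libraries left out, as did Psmc4 in day 4 against day 2. The count of members past the threshold was 0 for day 6 against the control. It was 1 with a filter of 20 normalized counts in 6 libraries (Psme4), 3 with limma-voom weights (Psmc1, Psme3 and Psme4), 1 with copies added (Psmc1), the sole alternative chosen after seeing the data, and 1 with only the 2 groups compared (Psme3). For day 4 against day 2 it was 2 with no filter on low values (Psmc1 and Psmc4), against 4 as reported. With 1 library left out the counts ran over 0 to 0 for day 2, 2 to 4 for day 4 and 0 to 1 for day 6 against the control, and over 1 to 4 for day 4 against day 2, 0 to 2 for day 6 against day 2 and 0 to 0 for day 6 against day 4. The causes were not tested. No result reversed. Each other scaling moved the median of all rows by at most 0.02.

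Samples with the same replicate number did not deviate together as a set, though some pairs did. Over 18 such pairs the correlation of deviations ran over −0.28 to 0.33 (median 0.018), with 3 above 0.1. Over 36 pairs of different number it ran over −0.33 to 0.315 (median 0), with 5 above 0.1. For replicate 3 it was 0.13, 0.071 and 0.328 between days with the TUNA hairpin, and −0.071, −0.215 and −0.261 against the control. With the replicate block, 3 members passed for day 4 against the control, 3 for day 4 against day 2 and 3 for day 6 against day 2, and Psme4 in day 4 against day 2 had an adjusted limma p of 0.0651. The 13 members that were not tested had at most 11.59 reads in any library.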

Other observations

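Among genes outside the symbol rule, Adrm1, a ubiquitin receptor of the base, had 7.49, 10.7 and 2.14 normalized counts in TUNA hairpin cells at day 2, 3.77, 5.13 and 0 at day 4 and 3.505, 9.80 and 11.2 at day 6, against 5.88, 12.003 and 7.33 in control hairpin cells. The day 4 libraries lay below the control without overlap, but the gap between 5.13 and 5.88 was less than 1 read. The log2 change of −1.56 ± 0.69 did not pass (limma adjusted p = 0.138).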
